A study of Mus musculus with 20 samples.

Results

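The effect of a lentiviral short hairpin RNA against Tcf7l2 was measured at day 2 of adipogenic differentiation in 3T3-L1 cells, a mouse fibroblast line that becomes lipid-filled fat cells after hormonal induction. The knockdown libraries came from cells carrying the Tcf7l2 hairpin and the scrambled libraries from cells carrying a hairpin of scrambled sequence, both in a SMARTvector backbone. Both groups had 2 RNA-seq libraries at day 2. The series holds 20 libraries in 10 groups, with both hairpins sampled at days 0, 2, 4, 6 and 8. Both lines had been infected at passage 2, selected with puromycin as mixed populations and used up to passage 8, and a thiazolidinedione was not a routine part of the differentiation medium. All genes whose mean normalised count over the 4 day 2 libraries reached 10 were followed, which kept 15287 of 33581 genes. The gene just inside that limit had a mean of 10.01 and the gene just outside had 9.99, and 22726 genes had at least 1 read.

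Tcf7l2 encodes a DNA-binding factor of the Tcf/Lef family, which recruits beta-catenin to Wnt target genes and represses them when beta-catenin is absent. Wnt signalling through beta-catenin holds preadipocytes undifferentiated. In 3T3-L1 cells the first days after induction bring re-entry into the cell cycle and the early factors Cebpb and Cebpd, which are followed by Pparg and Cebpa and then by the genes of lipid storage.

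The libraries held 28664392 and 29086511 reads in knockdown cells, against 23274311 and 33973608 in scrambled cells. The labels name 1 hairpin for these libraries, so an effect of that hairpin on other genes cannot be told apart from loss of Tcf7l2. The vector backbone was the same in both groups. Each hairpin was carried by its own infected and selected line, so other differences between the lines cannot be told apart from the knockdown either. Whether the pair of libraries in a group stems from separate cultures is not stated. The p-values therefore rest on the spread between these samples alone, and that spread may be technical. The labelled cell type was checked on 11 fibroblast and preadipocyte genes, all tested, which summed to 28120 and 25615 reads per 1000000 (RPM) in knockdown libraries and 20060 and 18392 RPM in scrambled libraries. Of 8 macrophage and leukocyte markers 2 had no read in any of the 4 libraries, and the 8 together summed to 26.9 and 28.7 RPM in knockdown libraries, against 23.5 and 24.2 RPM in scrambled libraries. Endothelial, skeletal muscle and epithelial markers summed to at most 3.14 RPM in any library.

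Tcf7l2 itself stood at 15.7 and 16.3 RPM in knockdown libraries, against 40.2 and 41.9 RPM in scrambled libraries. The groups were far apart and each pair of libraries nearly coincided. The knockdown mean was 0.389 times the scrambled mean, and the difference was −1.04 ± 0.0871 on the deposited log2 scale (SE, adjusted p = 0.0166, limma with Benjamini-Hochberg adjustment over all genes tested). That scale is a variance-stabilised one on which a gene without reads already stands at 6.94, so differences of weakly expressed genes are smaller on it than their fold changes. Of 17 tested Tcf/Lef factors and beta-catenin cofactors, Tcf7l2 was the 1 called, and their median difference was −0.09, beside −0.00 over all genes tested. Lef1, a family member that acts mainly with beta-catenin, stood at 19.2 and 15.6 RPM in knockdown libraries and at 27.7 and 30.0 RPM in scrambled ones (adjusted p = 0.0839). Tcf7l1, known mainly as a repressor, stood at 184 and 180 RPM in knockdown libraries and at 255 and 274 RPM in scrambled ones (adjusted p = 0.0901). For both genes the knockdown libraries lay below the scrambled libraries without overlap, and neither passed the test. Over all genes tested, the groups did not overlap, in either direction, for 45.7%. Ctnnb1, which encodes beta-catenin, gave 425 and 447 RPM in knockdown libraries and 446 and 489 RPM in scrambled ones (adjusted p = 0.809). Tcf7 had 1 and 2 reads in knockdown libraries and 3 and 2 reads in scrambled libraries, and it fell below the filter.

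At an adjusted p under 0.05, limma called 302 genes (1.98% of those tested), of which 203 were higher in knockdown cells (1.33%) and 99 lower (0.648%). An unadjusted p under 0.05 was reached by 2267 genes. No called gene had overlapping groups, but 45.7% of all genes tested did not overlap either. In RPM, 157 of the higher and 71 of the lower genes differed at least 2-fold between group means. The authors' deposited table has 742 genes at an adjusted p under 0.05 (4.85%), with 424 higher and 318 lower, and it holds all 302 genes with the same sign. A fit that shared 1 spread per gene over all 10 groups of the series called 52 genes (0.34%), of which 48 were among the 302. Read counts recovered from the deposited values and fitted with limma voom gave 265 calls (1.73%). Without scrambled replicate 2 the count was 138, and without knockdown replicate 1 it was 560. Among the 203 higher genes, 33 had a scrambled mean under 10 normalised counts and so passed the filter through the knockdown libraries, and 5 of the 99 lower genes passed through the scrambled ones.

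**Figure D1:**
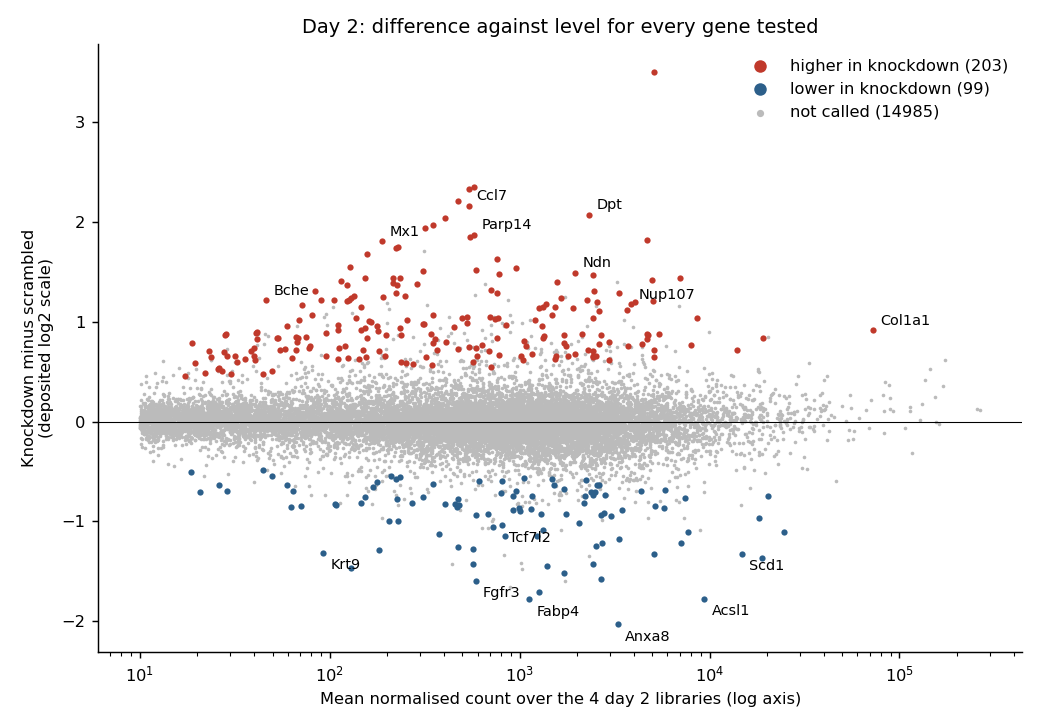
Difference between knockdown and scrambled libraries on the deposited log2 scale (vertical axis) against the mean normalised count (horizontal, log axis) for the 15287 genes tested at day 2. The 203 genes called higher are red and the 99 called lower are blue; low-count genes are drawn towards 0 by the scale.

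Of the 15 largest increases among called genes at or above the median level, 14 are described here by the kind of protein, secreted ones first. Dpt encodes dermatopontin, a small matrix protein that binds collagen and decorin. It rose to 143 and 127 RPM in knockdown libraries, against 20.2 and 33.9 RPM in scrambled libraries, a ratio of 4.99 (adjusted p = 0.0173). The thrombospondins Thbs1 and Thbs2 are secreted matricellular proteins that restrain blood vessel growth. Thbs1 stood at 148 and 111 RPM in knockdown libraries and at 43.5 and 40.4 RPM in scrambled ones (3.10-fold, adjusted p = 0.0176). Thbs2 stood at 257 and 260 RPM in knockdown libraries and at 95.1 and 89.4 RPM in scrambled ones (2.80-fold, adjusted p = 0.0155). In both, the gap between groups was wider than the distance between libraries of a group. Enpp2, or autotaxin, the secreted enzyme that makes lysophosphatidic acid, stood at 384 and 334 RPM in knockdown libraries and at 138 and 120 RPM in scrambled ones (2.79-fold, adjusted p = 0.0166). Pappa2, a secreted protease that cleaves IGF-binding proteins, reached 47.6 and 29.9 RPM in knockdown libraries, against 12.03 and 10.1 RPM in scrambled ones (3.50-fold, adjusted p = 0.0352). Its knockdown libraries lay further apart than those of Thbs2 but stayed above the scrambled ones, and its call was lost without either scrambled replicate.

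Csf1, the growth factor that macrophages need for survival, rose 2.58-fold, with 177 and 161 RPM in knockdown libraries and 76.0 and 55.1 RPM in scrambled ones. Retnla, a small secreted protein of the resistin family, rose 2.71-fold, with 70.1 and 99.9 RPM in knockdown libraries and 33.2 and 29.4 RPM in scrambled ones, and its call was lost without scrambled replicate 2. Both genes kept the knockdown libraries above the scrambled ones (adjusted p = 0.0238 for Csf1 and 0.0316 for Retnla). The galectin-related genes Lgals9 and Lgals3bp were also in this group; the first encodes a glycan-binding lectin and the second a secreted ligand of galectins. Lgals9 stood at 77.6 and 89.5 RPM in knockdown libraries and at 25.4 and 28.9 RPM in scrambled ones (3.08-fold, adjusted p = 0.0166). Lgals3bp stood at 111 and 141 RPM in knockdown libraries and at 50.6 and 41.9 RPM in scrambled ones (2.73-fold, adjusted p = 0.0233). These were the 2 called of 7 galectin genes tested, where 1.98% of all genes tested were called, and 3 of the 7 had differences below 0. When the spread was shared over all 10 groups, limma kept the calls of Dpt, Lgals9 and Lgals3bp. Those of Thbs1 (adjusted p = 0.177), Thbs2 (0.250), Enpp2 (0.241), Pappa2 (0.246), Csf1 (0.629) and Retnla (0.0584) were lost.

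Among intracellular and membrane proteins, Ndn gave the tightest groups. This gene encodes necdin, an imprinted protein of the MAGE family with a high level in preadipocytes. It stood at 107 and 103 RPM in knockdown libraries and at 32.5 RPM in both scrambled libraries (3.23-fold, difference 1.49 ± 0.0862, adjusted p = 0.0155). Magel2, its imprinted neighbour of the same family, had 47 and 44 reads in knockdown libraries but 1 and 2 in scrambled ones, a ratio of 30.1 with a 95% interval of 9.97 to 148.5 that covers counting error only. Peg10, an imprinted gene derived from a retrotransposon, went the other way, with 384 and 346 RPM in knockdown libraries and 1109 and 835 RPM in scrambled ones (ratio of knockdown over scrambled 0.376, adjusted p = 0.0238). Of 22 imprinted genes tested, Ndn and Magel2 were called higher and Peg10 lower, where 1.98% of all genes tested were called. Magel2 passed the filter through the knockdown libraries only. Syt13, a synaptotagmin, stood at 37.6 and 49.9 RPM in knockdown libraries and at 7.82 and 10.9 RPM in scrambled ones (4.67-fold, adjusted p = 0.0173). It was the 1 called of 5 synaptotagmins tested. Gpr149, an orphan receptor, rose 3.91-fold, with 47.7 and 39.1 RPM in knockdown libraries and 12.6 and 9.60 RPM in scrambled ones (adjusted p = 0.0166). In the fit of all 10 groups limma kept the calls of Ndn, Magel2 and Syt13. It lost those of Gpr149 (adjusted p = 0.572) and Peg10 (0.822). A pair of genes was called with no read in either scrambled library. Bche, butyrylcholinesterase, had 85 and 102 reads in knockdown libraries and was at least 61.8-fold higher, counting 3 reads over the scrambled group as the floor. Csmd1, a large membrane protein with complement control domains, had 47 and 29 reads in knockdown libraries and was at least 25.1-fold higher on the same floor.

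**Figure D2:**
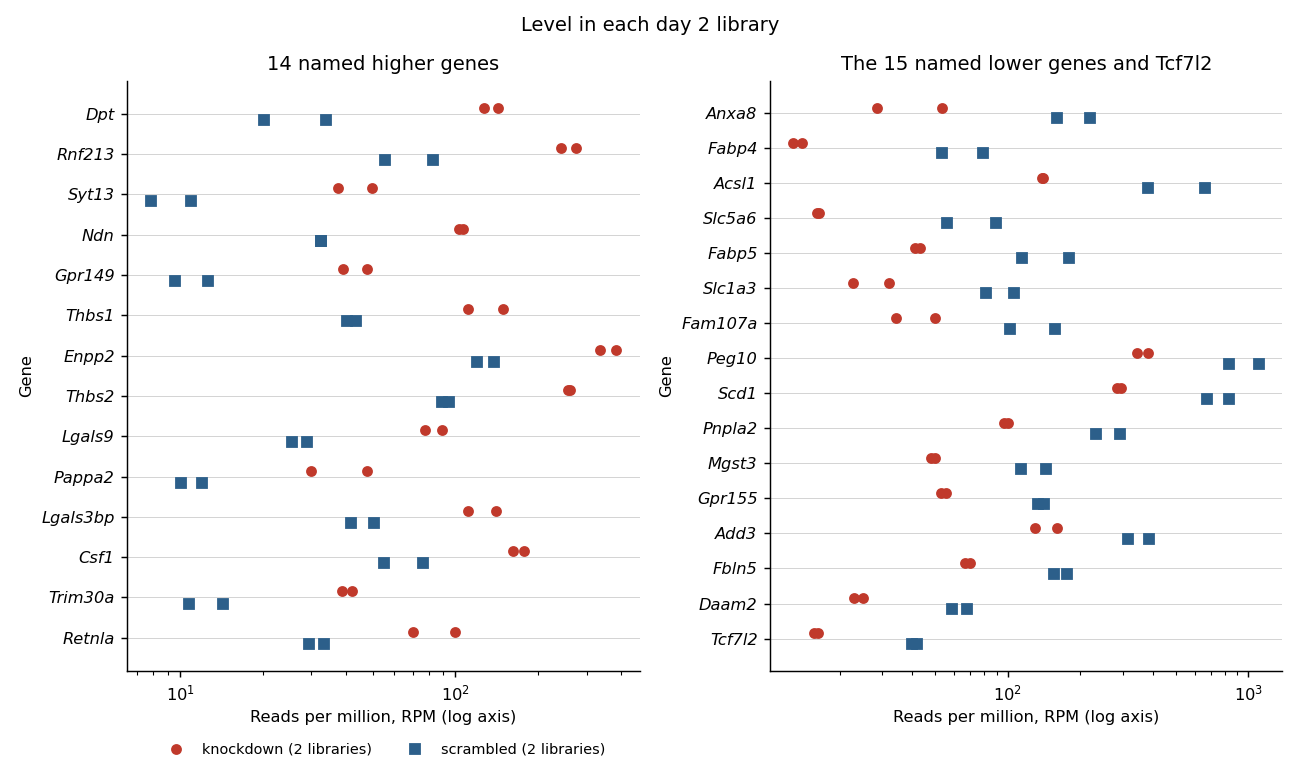
Level in RPM in each day 2 library (horizontal, log axis) for 14 named higher genes (left) and the 15 named lower genes with Tcf7l2 (right). Red circles are the 2 knockdown libraries and blue squares the 2 scrambled libraries of each gene; the groups overlap for none of these genes, which the rule for naming required of all but Tcf7l2.

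The list with the most calls held genes that cells switch on in response to interferon, the secreted antiviral signal. Of 53 tested members of a 54-gene list, 37 were called higher and none lower, where 1.33% of all genes tested were called higher. The median difference was 0.97, with a range of 0.27 to 1.97. All 53 differences were above 0, where 49.0% of all genes tested were. For 11 of the 53 the scrambled mean was under 10 normalised counts, so that they passed the filter through the knockdown libraries, and of the other 42 members 30 were called. Mx1, a GTPase that blocks viral replication, stood at 10.95 and 14.6 RPM in knockdown libraries and at 0.516 and 0.324 RPM in scrambled ones, a ratio of 30.5 (adjusted p = 0.0155). Parp14, an ADP-ribosyltransferase, stood at 32.4 and 38.2 RPM in knockdown libraries and at 5.71 and 4.15 RPM in scrambled ones (7.16-fold, adjusted p = 0.0155). In both genes the scrambled libraries were close to each other and far below. Igtp, an interferon-inducible GTPase, stood at 10.3 and 12.7 RPM in knockdown libraries and at 1.98 and 1.59 RPM in scrambled ones (6.46-fold, adjusted p = 0.0166). Irf1, a transcription factor of the interferon response, stood at 62.3 and 64.0 RPM in knockdown libraries and at 30.1 and 27.8 RPM in scrambled ones (2.18-fold, adjusted p = 0.0166). It was the 1 member still called when the spread was shared over all 10 groups (adjusted p = 0.000398). Without scrambled replicate 2, 16 members were called, and without knockdown replicate 1, 48.

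Rnf213, a very large ubiquitin ligase, and Trim30a, a mouse TRIM protein, are both known to be induced by interferon and were among the leading genes. Rnf213 stood at 241 and 274 RPM in knockdown libraries and at 83.0 and 55.2 RPM in scrambled ones (3.73-fold, adjusted p = 0.0185). Trim30a stood at 38.8 and 42.1 RPM in knockdown libraries and at 14.3 and 10.8 RPM in scrambled ones (3.23-fold, adjusted p = 0.0166). When the spread was shared over all 10 groups, both limma calls were lost (adjusted p = 0.797 for Rnf213 and 0.544 for Trim30a). Other members that were called, picked out here after their values were seen, were Ifit1 (16.5 and 25.1 RPM in knockdown libraries, 0.902 and 1.85 RPM in scrambled ones) and Oasl2 (13.9 and 32.1 RPM in knockdown libraries, 1.203 and 1.62 RPM in scrambled ones). Ifit1 binds viral RNA, and Oasl2 belongs to the oligoadenylate synthetase family. For Oasl2 the knockdown libraries differed more than 2-fold from each other, yet both lay far above the scrambled pair. Irf7, a transcription factor that carries the interferon signal onward, had a difference of 1.09 and did not pass the test (adjusted p = 0.0782). The Ifit, Oasl, Mx, Gbp and Trim30 families have close relatives whose reads may be shared, so the split between members is uncertain. Of 19 genes for interferons themselves in the table, 14 had no read in any of the 4 libraries. Ifnz accounted for nearly all reads, with 64 and 79 in knockdown libraries and 56 and 90 in scrambled ones, and Ifng had 5 and 3 reads in knockdown libraries and 0 in both scrambled ones.

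Genes for presenting peptides to T cells moved the same way, though fewer passed the test. Of 16 tested members, 5 were called higher and none lower, with a median of 0.64 and every difference above 0. Over all genes tested, 1.33% were called higher and 49.0% lay above 0. For Cd74 the scrambled mean was under 10 normalised counts, so that it passed the filter through the knockdown libraries, and of the other 15 members 4 were called. B2m, the light chain of MHC class I, stood at 357 and 459 RPM in knockdown libraries and at 210 and 180 RPM in scrambled ones (2.09-fold, adjusted p = 0.0391). Psmb10, a catalytic subunit of the immunoproteasome, stood at 21.1 and 23.6 RPM in knockdown libraries and at 10.2 and 11.6 RPM in scrambled ones (2.05-fold, adjusted p = 0.0329). The peptide transporter gene Tap1 rose 1.89-fold (adjusted p = 0.0410) and Tapbp, which loads peptides onto class I molecules, rose 1.59-fold (adjusted p = 0.0434). Cd74 was the fifth. Of the 16 members, the fit of all 10 groups called Psmb10 alone. Tap1 and Tapbp are in the interferon list as well. Without scrambled replicate 2 limma called 0 of the 16, without scrambled replicate 1 it called 3, and without either knockdown replicate it called 10. None of 7 constitutive proteasome subunits was called by limma, by limma voom on recovered reads or at an unadjusted p under 0.05 (0 each), and their median was −0.06.

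The chemokine genes Ccl2, Ccl7 and Ccl5 rose more than 10-fold from a low level. Of 20 chemokine and inflammatory genes tested, 6 were called higher and none lower, where 1.33% of all genes tested were called higher. The median was 0.50. Ccl2, which attracts monocytes, stood at 18.3 and 34.3 RPM in knockdown libraries and at 1.37 and 2.30 RPM in scrambled ones (14.3-fold, adjusted p = 0.0238). Ccl7, its neighbour with similar function, stood at 23.9 and 46.0 RPM in knockdown libraries and at 2.11 and 3.44 RPM in scrambled ones (12.6-fold, adjusted p = 0.0245). The second knockdown library was the higher in both genes, and so was the second scrambled library. Ccl5, which attracts T cells, stood at 6.35 and 7.39 RPM in knockdown libraries and at 0.602 and 0.471 RPM in scrambled ones (12.8-fold, adjusted p = 0.0155). Vcam1, an adhesion molecule for leukocytes, rose 2.40-fold, with 197 and 205 RPM in knockdown libraries and 81.8 and 85.5 RPM in scrambled ones (adjusted p = 0.0166). Saa3, an acute phase protein, and Ptgs2, the inducible prostaglandin synthase, completed the 6. The fit of all 10 groups kept the calls of Ccl7 and Ccl5. It lost those of Ccl2 (limma, adjusted p = 0.241), Vcam1 (0.248) and Saa3 (0.0644). C1ra, a protease of the classical complement pathway, rose 1.85-fold (adjusted p = 0.0492). The calls of Saa3 and C1ra were lost without either scrambled replicate. That of C1ra was also lost with voom on recovered reads, median centring, quantile normalization or a minimum mean count of 50.

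Promoters of the leading genes were searched for a pair of motifs that bear on these groups, and the sequences of those that held one are shown because they carry the motif counts below. The windows run from 250 bases before to 50 after a RefSeq start (GRCm38.p6). The first motif was CTTTGA, the core bound by Tcf/Lef factors, and the second was GAAA followed after any 2 letters by GAAA again, a form of the element bound by interferon regulatory factors. Both were read on both strands, matches of both may overlap, and capitals mark each match as it reads on the printed strand. The 3 highest-ranked named genes of each direction with a match are given, first those higher and then those lower in knockdown cells; for Trim30a, Slc5a6, Add3 and Fbln5 the window shown is that of 1 among several listed starts. Lgals9 lies at chr11:78984875-78985174 on the minus strand, Csf1 at chr3:107760420-107760719 on the minus strand and Trim30a at chr7:104465144-104465443 on the minus strand. Slc5a6 lies at chr5:31048030-31048329 on the minus strand, Add3 at chr19:53143747-53144046 on the plus strand and Fbln5 at chr12:101818435-101818734 on the minus strand.
Lgals9: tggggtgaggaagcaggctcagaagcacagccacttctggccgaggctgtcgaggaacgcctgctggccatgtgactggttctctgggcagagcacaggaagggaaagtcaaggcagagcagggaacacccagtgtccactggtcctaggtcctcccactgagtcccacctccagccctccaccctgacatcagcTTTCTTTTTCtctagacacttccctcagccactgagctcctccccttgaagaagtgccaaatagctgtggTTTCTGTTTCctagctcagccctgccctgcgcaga
Csf1: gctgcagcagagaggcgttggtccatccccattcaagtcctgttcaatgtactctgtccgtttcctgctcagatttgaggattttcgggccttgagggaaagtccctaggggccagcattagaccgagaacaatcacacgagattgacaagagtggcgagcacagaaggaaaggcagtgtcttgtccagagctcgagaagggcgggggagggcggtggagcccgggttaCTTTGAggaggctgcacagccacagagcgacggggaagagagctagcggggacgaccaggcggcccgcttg
Trim30a: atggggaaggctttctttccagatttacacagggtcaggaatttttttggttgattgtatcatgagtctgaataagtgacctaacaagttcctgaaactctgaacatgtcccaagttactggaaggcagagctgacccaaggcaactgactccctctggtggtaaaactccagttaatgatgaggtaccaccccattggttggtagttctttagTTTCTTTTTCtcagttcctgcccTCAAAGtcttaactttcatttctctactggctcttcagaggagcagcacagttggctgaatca
Slc5a6: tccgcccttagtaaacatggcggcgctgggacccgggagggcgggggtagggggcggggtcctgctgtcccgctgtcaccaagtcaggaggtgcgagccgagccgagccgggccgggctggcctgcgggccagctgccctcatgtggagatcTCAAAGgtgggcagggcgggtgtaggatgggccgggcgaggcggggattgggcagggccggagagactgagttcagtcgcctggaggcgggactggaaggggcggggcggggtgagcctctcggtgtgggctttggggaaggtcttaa
Add3: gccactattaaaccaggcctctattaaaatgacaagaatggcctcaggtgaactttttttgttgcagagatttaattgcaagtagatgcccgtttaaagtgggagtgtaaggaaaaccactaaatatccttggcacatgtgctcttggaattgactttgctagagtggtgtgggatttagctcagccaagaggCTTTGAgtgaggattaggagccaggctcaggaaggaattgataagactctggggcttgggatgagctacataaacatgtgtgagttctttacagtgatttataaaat
Fbln5: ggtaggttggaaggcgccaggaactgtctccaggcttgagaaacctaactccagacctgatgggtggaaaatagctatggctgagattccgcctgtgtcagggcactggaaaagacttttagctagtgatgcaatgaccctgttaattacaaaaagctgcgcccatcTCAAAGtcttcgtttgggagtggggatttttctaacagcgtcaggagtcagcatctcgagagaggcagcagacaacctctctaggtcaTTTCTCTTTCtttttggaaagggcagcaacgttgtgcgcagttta
Lgals9 held the interferon element at 2 places and Trim30a held it once beside a CTTTGA match; Csf1, Slc5a6 and Add3 each held CTTTGA alone, and Fbln5 held 1 match of each motif. That element was present in 23 of the 127 genes called higher that had a promoter in the table (18.1%), in 3 of 68 called lower (4.41%) and in 335 of all 8991 tested genes with a promoter (3.73%). Of the 23 higher genes with the element, 12 were among the 25 in the interferon list and 11 among the 102 outside it (10.8%). Of all 39 tested members of that list with a promoter, called or not, 19 held the element (48.7%). The list does not hold every such gene: the 11 outside it include Irgm2 and Trim30d, relatives of its members Irgm1 and Trim30a. CTTTGA was found in 23 of 127 higher genes (18.1%), in 12 of 68 lower genes (17.6%) and in 1270 of all 8991 (14.1%). A match is a stretch of letters and not a site of binding, and RefSeq promoters of Syt13, Fabp4, Scd1 and several other leading genes were not used here.

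The list with the most lower calls held genes of lipid storage. Of 26 tested genes of mature adipocytes, 7 were called lower and none higher, where 0.648% of all genes tested were called lower. The median was −0.78 and 23 differences were below 0, where 51.0% of all genes tested were below 0. In bulk RNA, fewer cells that express a gene and less RNA per cell cannot be told apart. Fabp4, the fatty acid carrier of fat cells, stood at 12.9 and 13.9 RPM in knockdown libraries, against 53.2 and 78.8 RPM in scrambled libraries, and was 4.92-fold higher in the scrambled mean (difference −1.78 ± 0.177, adjusted p = 0.0178). Its relative Fabp5 stood at 43.4 and 41.3 RPM in knockdown libraries and at 115 and 179 RPM in scrambled ones (difference −1.58, adjusted p = 0.0306). Acsl1, which activates fatty acids by joining them to coenzyme A, stood at 138 and 140 RPM in knockdown libraries and at 383 and 660 RPM in scrambled ones (difference −1.78, adjusted p = 0.0353). In all 3 genes the knockdown pair nearly coincided while the scrambled pair was spread, with replicate 2 the higher. Scd1, which desaturates fatty acids, stood at 296 and 284 RPM in knockdown libraries and at 674 and 827 RPM in scrambled ones (adjusted p = 0.0209). Pnpla2, the triglyceride lipase ATGL, stood at 100.2 and 96.3 RPM in knockdown libraries and at 232 and 294 RPM in scrambled ones (adjusted p = 0.0229). The lipid droplet coats Plin4 and Plin1 completed the 7, with Plin4 at 142 and 139 RPM in knockdown libraries and at 272 and 261 RPM in scrambled ones (adjusted p = 0.0236). When the spread was shared over all 10 groups none of the 26 was called by limma, the call of Plin4 was lost without scrambled replicate 2, and leaving out each day 2 library in turn gave 8 to 15 calls.

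Of the factors that drive the fat cell programme, those named here did not pass the test, with the exception of Junb. Pparg, its central regulator, stood at 55.6 and 67.9 RPM in knockdown libraries and at 88.1 and 116 RPM in scrambled ones (difference −0.63 ± 0.162, adjusted p = 0.145). Cebpa, which acts with it, stood at 68.8 and 76.0 RPM in knockdown libraries and at 100.5 and 161 RPM in scrambled ones (difference −0.74 ± 0.218, adjusted p = 0.198). The groups did not overlap for either gene, as for 45.7% of all genes tested, and neither passed the test. Adipoq, the fat cell hormone adiponectin, was still low, at 4.15 and 1.89 RPM in knockdown libraries and at 6.87 and 9.57 RPM in scrambled ones (adjusted p = 0.134). For the early factor Cebpb the 2 libraries of each group differed by far more than the groups, with 154 and 439 RPM in knockdown libraries and 148 and 412 RPM in scrambled ones (limma, adjusted p = 0.975). Its replicate 2 was the higher in both groups. Over all genes tested, deviations of same-numbered day 2 libraries correlated at 0.716, which the main fit does not use. Cebpd stood at 159 and 150 RPM in knockdown libraries and at 157 and 168 RPM in scrambled ones (adjusted p = 0.871). Of 26 early adipogenic transcription factors tested, 1 was called, the AP-1 factor Junb, with 96.5 and 106 RPM in knockdown libraries and 61.3 and 56.5 RPM in scrambled ones (1.72-fold, adjusted p = 0.0322). That call was lost without either scrambled replicate and in the fit of all 10 groups. Dlk1, a surface inhibitor of adipogenesis, had overlapping groups, with 665 and 876 RPM in knockdown libraries and 774 and 810 RPM in scrambled ones (adjusted p = 0.949).

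Mitochondrial lists had medians below 0 and few calls. Of 29 tested genes of the TCA cycle and fatty acid oxidation, all had differences below 0, with a median of −0.34, and 2 were called lower. Over all genes tested, 51.0% were below 0 and 0.648% were called lower. Pcx, pyruvate carboxylase, stood at 542 RPM in both knockdown libraries and at 1081 and 1310 RPM in scrambled ones (difference −1.11 ± 0.135, adjusted p = 0.0266). Cpt2, which imports fatty acids into the mitochondrial matrix, stood at 60.3 and 63.3 RPM in knockdown libraries and at 99.9 and 120 RPM in scrambled ones (adjusted p = 0.0497). For both genes the groups were apart, though the Cpt2 call was among those closest to the threshold, and both calls were lost without scrambled replicate 2. The Cpt2 call was also lost with voom on recovered reads, median centring, quantile normalization or a minimum mean count of 50. Neither Pcx nor Cpt2 was called in the fit of all 10 groups. Respiratory chain subunits had a median of −0.21 over 33 genes, 32 of them below 0. Limma and voom called none of them, and 7 reached an unadjusted p under 0.05, beside 2267 of all 15287 genes tested. Genes of ribosome biogenesis and of the mitochondrial ribosome, 1 list together, gave a median of −0.28 over 25 genes with no call by limma or voom and 10 at an unadjusted p under 0.05. Cytosolic ribosomal proteins gave a median of 0.03 over 33 genes, with 0 calls by either and 0 at an unadjusted p under 0.05.

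The remaining leading decreases were genes of varied function. Anxa8, a calcium-dependent membrane-binding annexin, led the 15 named lower genes on the deposited log2 scale, with 28.7 and 53.5 RPM in knockdown libraries and 161 and 221 RPM in scrambled ones (4.64-fold higher in scrambled cells, difference −2.03 ± 0.275, adjusted p = 0.0322). Its call was lost without scrambled replicate 2. Slc5a6, the transporter of biotin and pantothenate, stood at 16.4 and 16.1 RPM in knockdown libraries and at 56.0 and 89.8 RPM in scrambled ones (difference −1.71, adjusted p = 0.0260). Slc1a3, a glutamate transporter, stood at 32.0 and 22.7 RPM in knockdown libraries and at 106 and 81.5 RPM in scrambled ones (difference −1.52, adjusted p = 0.0238). Here replicate 1 was the higher in both groups. Fbln5, a matrix protein needed to assemble elastic fibres, stood at 66.4 and 69.5 RPM in knockdown libraries and at 156 and 176 RPM in scrambled ones (difference −1.18 ± 0.107, adjusted p = 0.0166). It was the 1 called of 20 elastic fibre genes, whose median was −0.01. Add3, the gamma subunit of the membrane skeleton protein adducin, stood at 130 and 160 RPM in knockdown libraries and at 316 and 386 RPM in scrambled ones (difference −1.21, adjusted p = 0.0307), and its call was lost without scrambled replicate 2. It was the 1 called of 14 membrane skeleton genes tested. Gpr155, a multi-spanning membrane protein, stood at 52.7 and 55.5 RPM in knockdown libraries and at 134 and 142 RPM in scrambled ones (difference −1.21 ± 0.0962, adjusted p = 0.0166). When the spread was shared over all 10 groups, Fbln5 and Gpr155 kept adjusted p-values of 0.00125 each and Add3 one of 0.0251, while the limma calls of Anxa8 (adjusted p = 0.682), Slc5a6 (0.241), Slc1a3 (0.518) and Mgst3 (0.371) were lost. Mgst3, a microsomal glutathione S-transferase, differed by −1.24 (adjusted p = 0.0229), and Fam107a, an actin-associated protein, by −1.43 (adjusted p = 0.0473). The Fam107a call was lost without scrambled replicate 1. It was also lost with voom on recovered reads, median centring, quantile normalization or a minimum mean count of 50.

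Readouts of Wnt signalling gave few calls, where 1.98% of all genes tested were called. Of 15 tested Wnt targets and feedback genes, 1 was called higher, and the median was −0.18. That gene, Apcdd1, is a membrane inhibitor of Wnt signalling and stood at 34.3 and 35.9 RPM in knockdown libraries, against 18.5 and 20.6 RPM in scrambled libraries (1.79-fold, adjusted p = 0.0336). Axin2, the most used feedback readout, had 0 and 5 reads in knockdown libraries and 0 and 1 in scrambled libraries, and so was not tested. Ccnd1, cyclin D1, stood at 94.1 and 106 RPM in knockdown libraries and at 154 and 155 RPM in scrambled ones. Its groups did not overlap, as for 45.7% of all genes tested, and it missed the threshold (limma, adjusted p = 0.0632). Among receptors, Lgr4, which binds R-spondins, was the 1 called of 16, with 193 and 187 RPM in knockdown libraries and 331 RPM in both scrambled ones (difference −0.76, adjusted p = 0.0300). Among 7 ligands and secreted antagonists the 1 called was Wnt4, with 44.6 and 44.2 RPM in knockdown libraries and 77.6 and 75.4 RPM in scrambled ones (difference −0.67, adjusted p = 0.0280). Daam2, a formin that acts in Wnt signalling, stood at 22.9 and 25.1 RPM in knockdown libraries and at 67.8 and 58.9 RPM in scrambled ones (difference −1.15, adjusted p = 0.0166). Each of these genes except Axin2 had libraries within a group closer than the groups. The fit of all 10 groups lost the calls of Daam2 (limma, adjusted p = 0.126), Lgr4 (0.188), Wnt4 (0.484) and Apcdd1. The calls of Apcdd1, Lgr4 and Wnt4 were lost without either scrambled replicate, with adjusted p-values between 0.0507 and 0.150 over these and the other named calls lost there.

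FGF signalling showed calls in both directions. Fgfr3, a receptor, stood at 7.22 and 6.29 RPM in knockdown libraries and at 31.6 and 37.5 RPM in scrambled ones, 5.11-fold higher in scrambled cells (difference −1.59 ± 0.111, adjusted p = 0.0155). Fgfr2, another receptor, stood at 153 and 182 RPM in knockdown libraries and at 336 and 412 RPM in scrambled ones (difference −1.10, adjusted p = 0.0336). Its ligand Fgf7 was higher, at 62.1 and 63.7 RPM in knockdown libraries and at 35.0 and 28.3 RPM in scrambled ones (1.99-fold, adjusted p = 0.0275). These were the 3 called of 12 genes tested, with a median of 0.08, where 1.98% of all genes tested were called. The fit of all 10 groups kept the call of Fgfr2 and lost those of Fgfr3 (limma, adjusted p = 0.0553) and Fgf7. The calls of Fgfr2 and Fgf7 were lost without scrambled replicate 2.

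Fibroblast and matrix lists gave a few calls, mostly of higher genes, where 1.33% of all genes tested were called higher and 0.648% lower. Of 11 fibroblast and preadipocyte identity genes 3 were called higher, with a median of 0.53. Col1a1, the main chain of type I collagen, stood at 3579 and 3032 RPM in knockdown libraries and at 1866 and 1660 RPM in scrambled ones (1.87-fold, adjusted p = 0.0352). Thy1 and Ly6a, surface proteins of fibroblasts, rose 1.80-fold and 1.81-fold (adjusted p = 0.0329 and 0.0370). Among 27 preadipocyte markers and inhibitors of adipogenesis Ly6a was called higher and Id1 lower, with a median of 0.03. None of the 3 calls held without scrambled replicate 2. Among 21 collagen chains tested Col1a1 was called higher and Col15a1, a basement membrane collagen, lower, with a median of 0.25. Mmp9, gelatinase B, was the 1 called of 23 matrix proteases and inhibitors (4.15-fold, adjusted p = 0.0364). Cnn2, an actin-binding calponin, was the 1 called of 17 contractile genes (1.69-fold, adjusted p = 0.0458). The Mmp9 call was lost without scrambled replicate 1, the Col15a1 call without scrambled replicate 2 and the Cnn2 call without any 1 of knockdown replicate 1 or the scrambled replicates. With voom on recovered reads the Mmp9 and Col15a1 calls were lost. With median centring or a minimum mean count of 50 the Col15a1 and Cnn2 calls were lost, and with quantile normalization that of Col15a1. The fit of all 10 groups called no member of these lists.

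**Figure D3:**
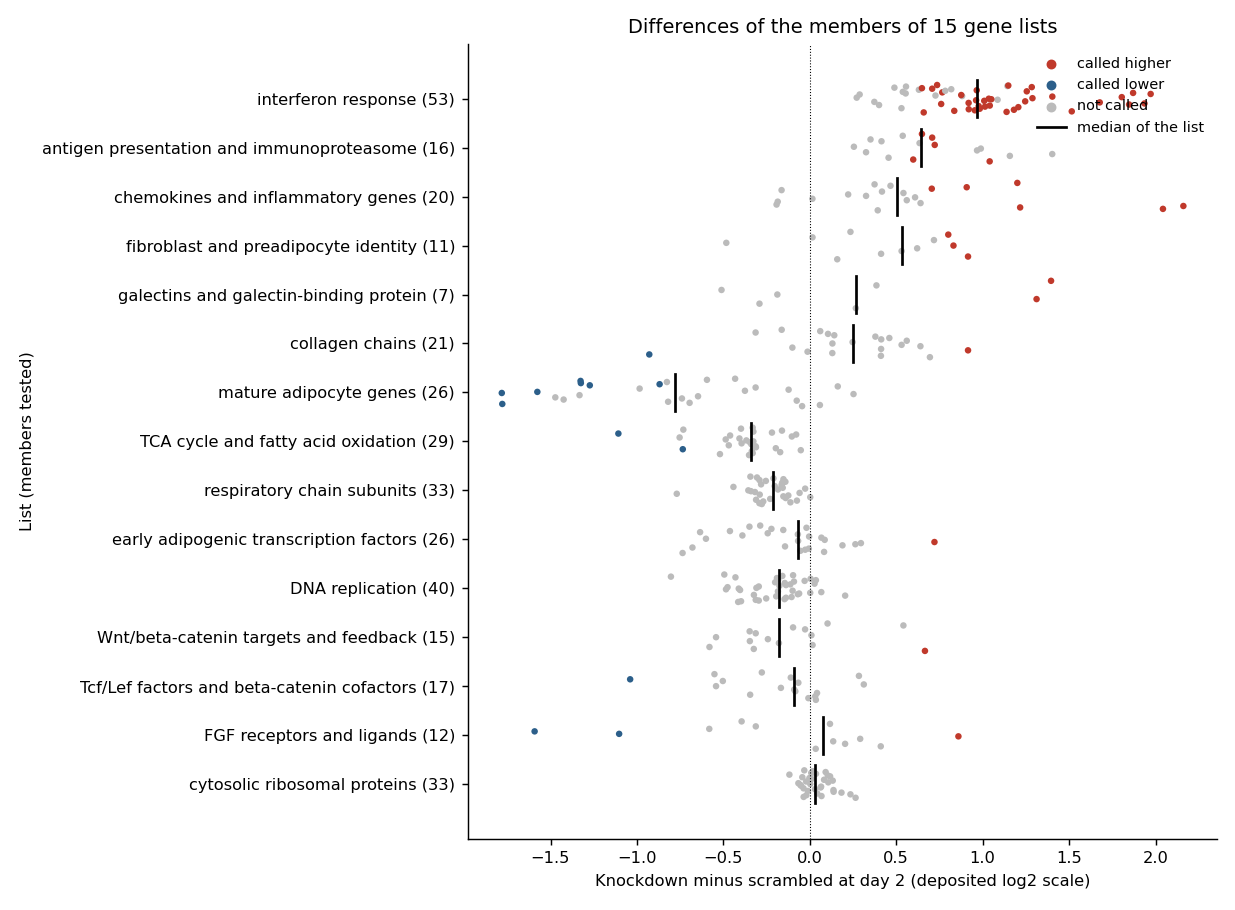
Difference between knockdown and scrambled libraries at day 2 (horizontal axis, deposited log2 scale) for each tested member of 15 lists, with the number tested in brackets. Red points were called higher, blue points lower and grey points were not called; black bars are list medians, which lie at 0.97 for the interferon response and at −0.78 for mature adipocyte genes.

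Genes of DNA replication and mitosis did not pass the test in the main fit, which does not use replicate numbers. Of 40 DNA replication genes limma called none, voom none, and 4 reached an unadjusted p under 0.05, beside 2267 of all 15287 genes tested. The median was −0.18 and 34 differences were below 0, where 51.0% of all genes tested were. Of 39 mitosis genes limma and voom called none, 2 reached an unadjusted p under 0.05, and the median was −0.14. With replicate number as a block in the day 2 fit, limma called 16 of the 40 and 11 of the 39, beside 24.7% of all genes tested. Rrm2, a subunit of ribonucleotide reductase, stood at 19.7 and 33.0 RPM in knockdown libraries and at 39.2 and 66.1 RPM in scrambled ones (adjusted p = 0.260). Replicate 2 was the higher in both groups, and the groups did not overlap, as for 45.7% of all genes tested. Among 26 cell cycle inhibitors and p53 targets, Eda2r, a receptor of the TNF family, was the 1 called (1.74-fold, adjusted p = 0.0316). Glucocorticoid and cAMP response genes, which read the hormones of the induction mix, gave Saa3 higher and Glul, glutamine synthetase, lower among 25 tested, with a median of 0.07. Id1, an inhibitor of differentiation factors, was lower, at 61.6 and 67.5 RPM in knockdown libraries and at 114 and 109 RPM in scrambled ones (limma, adjusted p = 0.0322). It was the 1 called of 24 TGF-beta and BMP genes. The fit of all 10 groups lost the calls of Eda2r, Saa3, Glul and Id1. The calls of Eda2r, Saa3, Glul and Id1 were each lost without either scrambled replicate, and that of Glul also without knockdown replicate 2.

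Metabolic and growth factor lists gave few calls, where 1.98% of all genes tested were called. Of 28 glycolysis and hypoxia genes, Ldhb, a lactate dehydrogenase subunit, and Epas1, which encodes HIF-2 alpha, were lower, and Ndrg1 was higher. Ldhb stood at 44.8 and 44.7 RPM in knockdown libraries and at 102 and 97.9 RPM in scrambled ones (difference −1.02, adjusted p = 0.0166). Epas1 stood at 12.9 and 14.6 RPM in knockdown libraries and at 34.3 and 39.7 RPM in scrambled ones (difference −1.06, adjusted p = 0.0185). Both kept narrow groups, but the fit of all 10 groups lost both calls (limma, adjusted p = 0.629 for Ldhb and 0.241 for Epas1). Of 23 genes of IGF and insulin signalling, Igfbp3, a carrier of IGFs, and Socs3, an inhibitor of cytokine signalling, were higher by 1.96-fold and 1.64-fold, and Tbc1d4, which controls the trafficking of the glucose transporter, was lower (difference −0.81, adjusted p = 0.0238). Acat2, an acetyl-CoA acetyltransferase, was the 1 called of 23 cholesterol genes (difference −0.88, adjusted p = 0.0299), and its close relative may share reads with it. The fit of all 10 groups also lost the calls of Ndrg1, Igfbp3, Socs3, Tbc1d4 and Acat2. The calls of Igfbp3, Socs3 and Acat2 were lost without scrambled replicate 2, and that of Socs3 also without scrambled replicate 1. Chaperones, the unfolded protein response, Hox genes and circadian genes had 0 calls by limma and by voom, with 6, 8, 3 and 2 members at an unadjusted p under 0.05 and medians of −0.11, 0.28, −0.08 and −0.05. These lists had 20, 26, 17 and 17 genes tested, and 2267 of all 15287 genes reached that unadjusted p.

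Nup107 was the 1 called of 27 nuclear pore genes, whose median was −0.07. This gene encodes a scaffold subunit of the pore and stood at 186 and 194 RPM in knockdown libraries, against 71.8 and 89.6 RPM in scrambled libraries (2.35-fold, difference 1.18 ± 0.132, adjusted p = 0.0238). Since other pore genes were not called, the 10 genes on either side of it in RefSeq order were read as well. Yeats4, a chromatin reader a few genes away, rose 1.79-fold, with 123 and 113 RPM in knockdown libraries and 61.4 and 70.7 RPM in scrambled ones (adjusted p = 0.0356). It was the 1 other gene called there, and its call was lost without scrambled replicate 1. Mdm2, the ubiquitin ligase of p53, lies between them and stood at 3374 and 3167 RPM in knockdown libraries and at 3216 and 2859 RPM in scrambled ones (difference 0.12, adjusted p = 0.702). Slc35e3, next to Nup107, stood at 1437 and 1294 RPM in knockdown libraries and at 1636 and 1501 RPM in scrambled ones (adjusted p = 0.540). The kit is not stated to keep strand, so reads of overlapping genes could not be told apart.

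**Figure D4:**
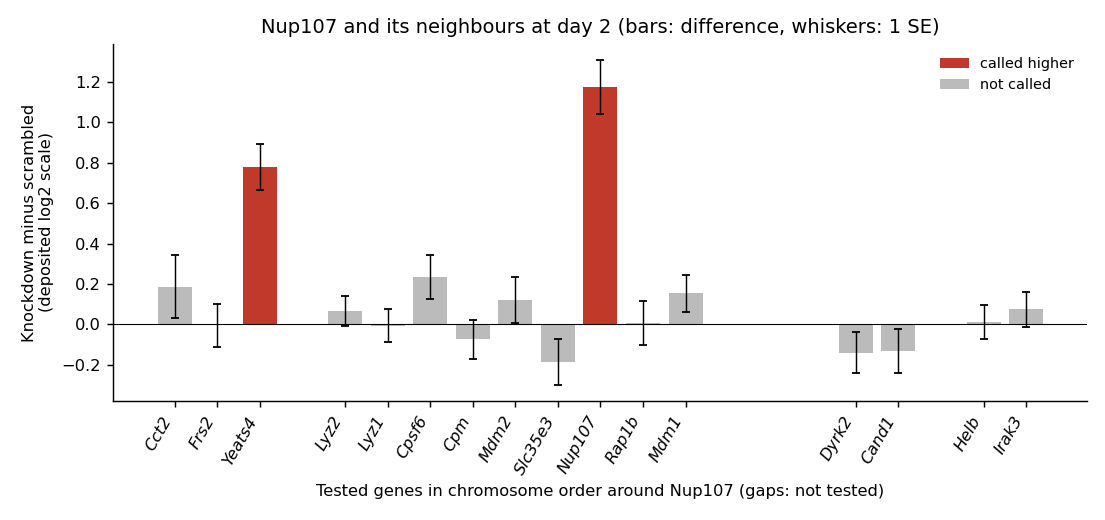
Difference between knockdown and scrambled libraries at day 2 (bars, deposited log2 scale; whiskers, 1 SE) for the tested genes among Nup107 and the 10 genes on either side, in RefSeq order. Nup107 at 1.18 and Yeats4 at 0.78 were called (red), and the genes between them, Mdm2 and Slc35e3 among them, were not (grey).

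Whether the day 2 differences were particular to day 2 was tested by the difference of knockdown differences between days, with limma voom on recovered reads of all 20 libraries. No gene passed for day 2 against day 0 (0%) or day 2 against day 4 (0%), with 366 and 151 genes at an unadjusted p under 0.05. That fit shared 1 spread per gene over all days. On the deposited values, scrambled libraries of a day differed with an SD across genes of 0.305, 0.204, 0.462, 0.497 and 0.606 at days 0, 2, 4, 6 and 8. For knockdown libraries the SDs were 0.327, 0.194, 0.232, 0.234 and 0.264. On the deposited values limma called 3 genes against day 0, Dio2, Krt9 and Ppp1r1b (adjusted p = 0.0158 each), and 0 against day 4. The deposited scales of the days compress low counts differently. A gene without reads stands at 6.94 at day 2 and at 5.87 at day 0. Krt9, a keratin, stood at 0.174 and 0.275 RPM in knockdown libraries at day 2, against 5.63 and 6.92 RPM in scrambled libraries. Its knockdown mean was under 10 normalised counts, so that it passed the filter through the scrambled libraries. Ppp1r1b, a phosphatase inhibitor, stood at 0.314 and 0.447 RPM in knockdown libraries at day 2, against 7.05 and 10.4 RPM in scrambled libraries. Dio2, which activates thyroid hormone, was higher, with 16.7 and 10.5 RPM in knockdown libraries and 1.63 and 1.501 RPM in scrambled ones. All 3 genes were called at day 2 itself.

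Libraries of each day were separate, so the sign of the 302 differences could be read at other days, although the lines were the same. At day 0, before induction, 190 of the 203 higher genes (93.6%) and 84 of the 99 lower genes (84.8%) had the sign of day 2, beside 60.8% of all genes tested. At day 4 the counts were 201 (99.0%) and 96 (97.0%), beside 73.5% of all genes. Tcf7l2 lay below the scrambled level on all days, with log2 fold changes of −1.49, −1.33, −1.65, −1.66 and −1.64 at days 0, 2, 4, 6 and 8. Ndn lay above it on all days, at 0.72, 1.72, 1.80, 1.71 and 1.34. Some genes had a difference at day 2 with little at day 0. Acsl1 stood at 0.05, −1.81, −1.76, −2.37 and −2.72 over the 5 days, and Slc5a6 at −0.06, −2.09, −1.47, −1.63 and −1.68. Others, such as Thbs2, were furthest from 0 at day 2, at −0.14, 1.51, 0.67, 0.40 and 0.21. Fabp4 lay below the scrambled level on all days, at −2.36, −2.24, −1.82, −2.07 and −2.18. In this limma voom fit Tcf7l2 passed the test on all days, and Ndn on all but day 0 (adjusted p = 0.249). Acsl1, Slc5a6, Thbs2 and Fabp4 passed on no day, with adjusted p-values at day 2 of 0.518, 0.0877, 0.0788 and 0.327. For these genes the change between day 2 and day 0 did not pass the test after adjustment; it was −1.86 ± 1.07 for Acsl1 and 1.65 ± 0.532 for Thbs2 (SE, adjusted p = 1 each, limma voom).

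**Figure D5:**
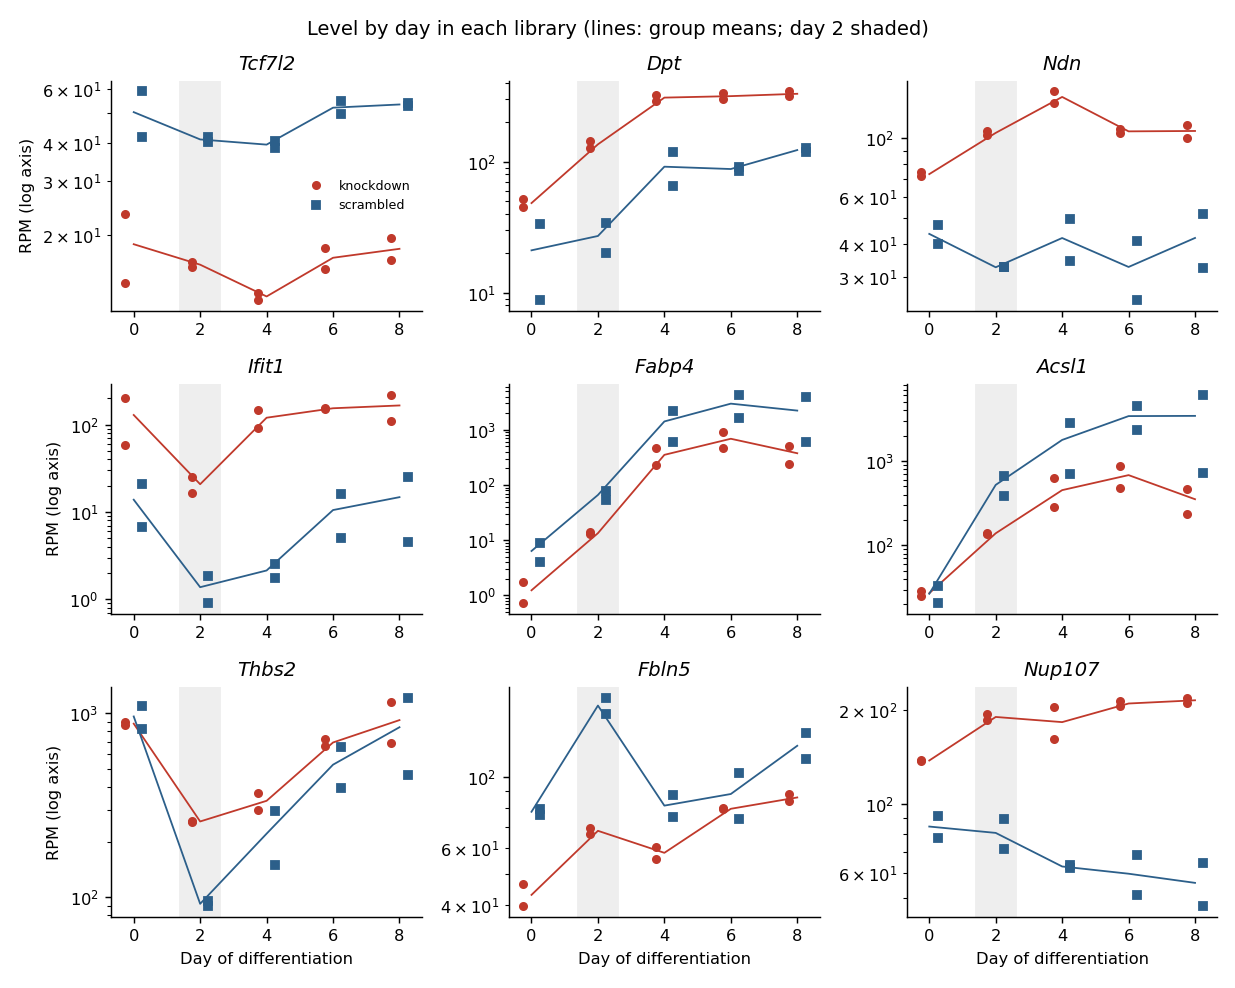
Level in RPM (vertical, log axis) by day of differentiation for 9 genes, with red circles for knockdown libraries, blue squares for scrambled libraries and lines through group means; day 2 is shaded. Tcf7l2 lies lower and Dpt, Ndn and Ifit1 higher in knockdown libraries at each day, while the groups of Thbs2 are furthest apart at day 2.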

How the data were processed

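RNA-seq of 4 day 2 libraries of 3T3-L1 cells, 2 per hairpin, was analysed, with the other 16 libraries used for comparisons between days. Per the labels' protocols, libraries were made with the TruSeq V2 kit. The submitters' processing notes name TopHat2 2.0.13 and Bowtie2 2.2.3.0, SAMtools, the mm9 build and DESeq2 1.10.1. Neither the read counter nor the gene annotation is given in the sources used here. Each deposited table covers 1 day and gives variance-stabilised log2 values per library. For each gene the authors also deposited a mean signal, called the mean normalised count here. The same deposited tables hold a log2 fold change, its standard error, a test score (fold change over error), a p-value and an adjusted p-value, all computed by the authors. All per-library columns were used (0 unused).

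The transformation was inverted to recover reads: 100% of values up to 100 reads lay within 0.02 of a whole number. Totals over the series were 20153362 to 33973608 reads. RPM are recovered reads per 1000000 of a library's total, and fold changes are ratios of mean RPM. Differences were tested on the log2 values of the 4 libraries, as deposited, in limma 3.58.1 under R 4.3.3 with statmod 1.5.0, using a trended, robust spread and 2 residual degrees of freedom. Benjamini-Hochberg adjustment covered 15287 genes. An exact permutation test of 2 against 2 cannot go below p = 0.333 and was not used. Differences between days used limma voom on recovered reads. Scripts were tested on simulated data. The 2 libraries of a group differed with an SD across genes of 0.194 (knockdown) and 0.204 (scrambled) on the log2 scale and were counted as separate samples.

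The gene set, the 43 lists and the rule for named genes were chosen with earlier results of these data known. Named were, in each direction, the 15 genes with the largest differences among those called at or above the median level (592 normalised counts), without overlap, leaving out unnamed predicted genes; 1 gene named by this rule and the list that holds it are not reported here. In each list up to 4 members with the smallest adjusted p were named, as were fixed genes of the Tcf/Lef and adipogenic programmes and called genes at 0 reads in a group. Krt9, Ppp1r1b, Dio2, Ifit1, Oasl2, Irf7, Cd74, Ptgs2, Plin1 and the genes for interferons were added after their values were seen. Gene symbols came from the files; neighbours and promoters came from RefSeq by symbol (8991 of 15287 genes had a promoter). Alternatives were other filters, scalings, spreads, the replicate block, recovered reads and leaving out each library.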

Additional observations from a re-analysis of the deposited data

How the results depend on the processing

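The count of 302 calls (203 higher, 99 lower) was 52 (37 and 15) when all 10 groups shared 1 spread per gene, 452 (299 and 153) without a filter, 238 with a minimum mean count of 50, 265 with quantile normalization, 264 with median centring, 309 without trend and robust estimation, 282 with a change of at least 1.5-fold, and 265 with voom on recovered reads. Leaving out each day 2 library in turn gave 138 to 560 calls (92 to 376 higher, 46 to 186 lower), with 138 without scrambled replicate 2 and 560 and 540 without knockdown replicates 1 and 2; in the fit of all 10 groups the counts were 7 to 11 (11, 8, 7 and 9), with 3 to 7 higher (7, 4, 3 and 5) and 4 lower. With 2 pairs the replicate numbers count as shared numbers only, although deviations of same-numbered libraries correlated at 0.716; the replicate block, with 1 residual degree of freedom, gave 3781 calls (1782 and 1999), all 302 among them, and in all 10 groups 128 (87 and 41), of which 80 were among the 302. The block in the day 2 fit called 16 of 40 DNA replication and 11 of 39 mitosis genes, beside 24.7% of all genes tested. Of 76 named genes called, none reversed under any setting; 56 were lost in the fit of all 10 groups, 47 with the block in all 10 groups, 30 without scrambled replicate 2, 18 without scrambled replicate 1, 70 to 73 when a day 2 library was also left out of the fit of all 10 groups (70, 73, 73 and 72), and at most 5 under each remaining setting; 3 more were not tested with the minimum mean count of 50. For the change from day 0, deposited values gave 3 calls in place of 0, and for the change from day 4 the replicate block gave 1, Lcn2 (2.64, adjusted p = 0.0335); every other setting, including the libraries of the 2 days only, a setting added after the data were seen, and each left-out library, gave 0. The causes were not tested. With 2 libraries per group, a missed threshold does not show that a gene did not differ.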
